A study of Mus musculus with 19 samples.

Results

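Collagen and laminin genes were followed in the embryonic cortex of mice in which Hedgehog signalling had been switched on. The set holds every gene of the expression table whose symbol is that of a numbered collagen chain (Col, number, a, number) or of a laminin alpha, beta or gamma chain (Lama, Lamb, Lamc with a number), 55 of 47643 symbols, of which 44 were collagens and 11 were laminins. Genes were matched by name alone, but the set was chosen with earlier results of these data known. RNA was sequenced from cortex of E14.5 embryos (E, embryonic day) in 19 libraries. Mutant embryos had the genotype GFAP::Cre; SmoM2, where SmoM2, a form of the Hedgehog transducer Smoothened that signals without ligand, is switched on by Cre recombinase under a Gfap promoter, and the controls were wildtype. There were 4 mutant medial, 5 control medial, 4 mutant dorsal and 6 control dorsal libraries. The tissue labels read medial and dorsal cortex, whereas the protocol speaks of medial or lateral pieces. GFAP-driven Cre is known to act in radial glia, the progenitors of the cortex; which cells had recombined was not measured, and the dissected pieces can also hold vessels and meninges.

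Collagens are triple-helical proteins of the extracellular matrix. Type IV collagens form the network of basement membranes, fibrillar collagens such as types I, II, III, V and XI build fibrils, and fibril-associated collagens such as types IX, XII and XVI decorate them. Laminins are cross-shaped trimers of 1 alpha, 1 beta and 1 gamma chain that start basement membrane assembly. In the developing cortex a basement membrane lies beneath the meninges, where the endfeet of radial glia attach, and another surrounds the vessels; loss of laminin or of type IV collagen there is known to let neurons migrate past the pial surface.

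Values were in TPM (levels scaled by gene length and to a total of 1000000 per library). Levels of different genes can therefore be set side by side, while the sequencing depth is unknown and no counting error can be given. As a check of the labels, Gli1, a transcription factor gene induced by Hedgehog signalling, averaged 37.2 ± 9.94 TPM in mutant medial and 0.398 ± 0.135 TPM in control medial libraries, and 35.0 ± 5.44 TPM in mutant dorsal and 0.586 ± 0.268 TPM in control dorsal libraries (SD, n = 4, 5, 4 and 6). All mutant libraries and control libraries 1, 5 and 6 were male by Xist and Ddx3y, and control libraries 2, 3 and 4 were female. Markers of cortical neurons summed to 2487 to 3250 TPM in mutant medial, 3589 to 4701 TPM in control medial, 3530 to 5245 TPM in mutant dorsal and 5544 to 6245 TPM in control dorsal libraries. Mutant medial library 3 stood apart from the rest of its group in many collagens, as described with the interstitial collagens. Member calls that change when it is left out are named.

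All members together took between 0.0233% and 0.0488% of the TPM of a library. Of the 55 members, 29 reached 1 TPM in at least 4 libraries and were tested (22 collagens and 7 laminins), 26 did not, and 18 stayed under 1 TPM in every library. The expressed set was led by the chains of basement membranes. Col4a1 and Col4a2, the ubiquitous chains of type IV collagen, had medians of 58.9 and 30.5 TPM over the 19 libraries. Lamb2, Lamc1 and Lamb1 had medians of 25.9, 19.9 and 19.1 TPM, and Lama1 led the alpha chains with 10.9 TPM. Col18a1, the source of endostatin in vascular and epithelial basement membranes, had a median of 24.2 TPM. Among the fibrillar chains Col2a1 reached 26.1 TPM and Col11a1 16.2 TPM, far above Col1a1 (0.894 TPM) and Col1a2 (0.929 TPM), the chains of the commonest collagen of connective tissue.

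**Figure D1:**
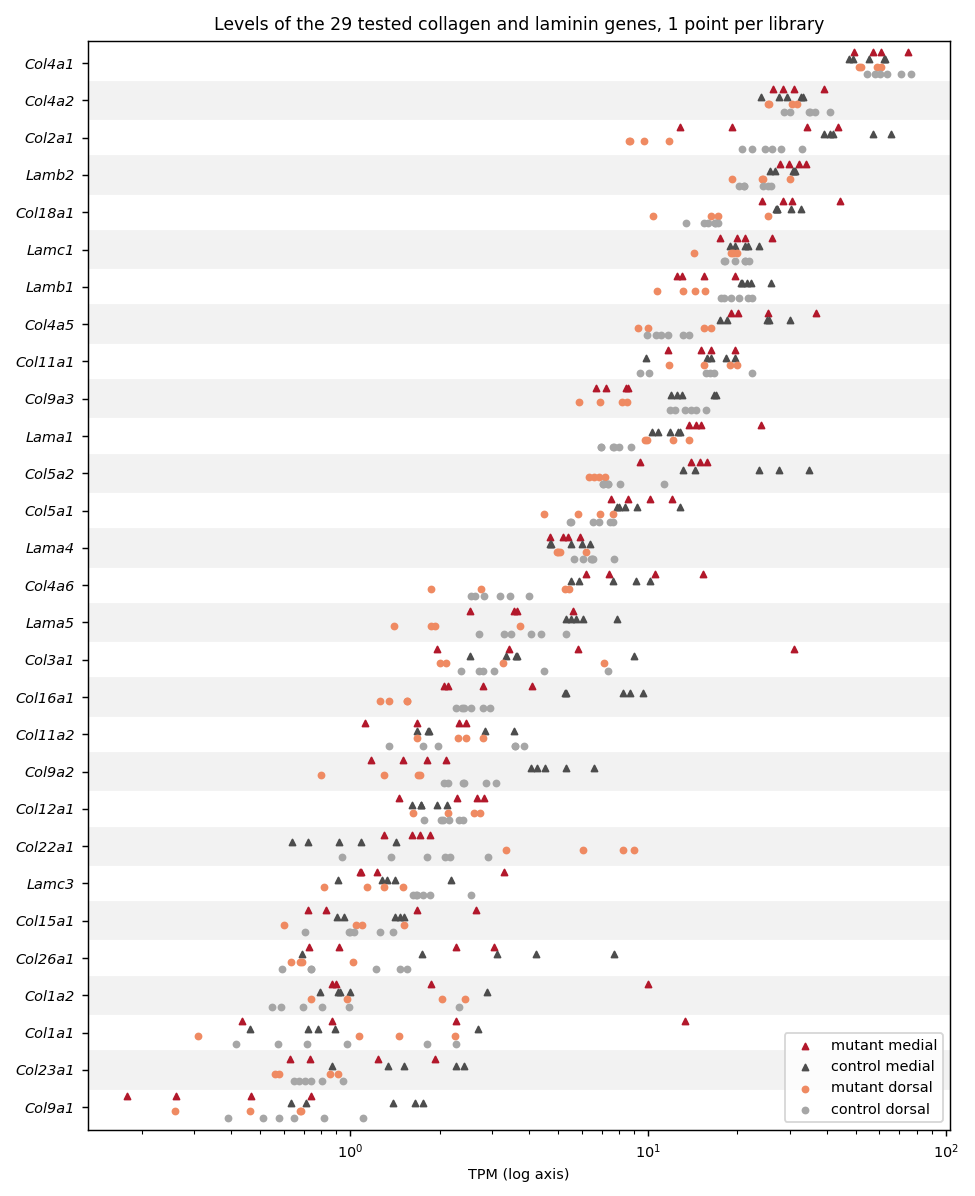
TPM (log axis) of the 29 tested collagen and laminin genes, ordered by their median over 19 libraries; each point is 1 library, in rows for mutant medial, control medial, mutant dorsal and control dorsal. Col4a1 lies highest with a median of 58.9 TPM, and Col3a1, Col1a1 and Col1a2 each have 1 mutant medial library far to the right.

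Differences between mutant and control were tested on log2(TPM + 1) in limma over all 13520 expressed genes, with Benjamini-Hochberg adjustment and a threshold of 0.05 on the adjusted p; a log2 change is given with its standard error (SE). In medial cortex 9 of the 29 tested members passed, 1 higher and 8 lower in the mutant. That is 31.0% of the members, against 39.6% of all genes tested (9.44% higher and 30.2% lower). In dorsal cortex 9 members passed as well, 2 higher and 7 lower, against 37.5% of all genes (9.93% higher and 27.6% lower). The members were thus not called more often than genes in general, and the median log2 change of the tested members was 0.04 medially and -0.11 dorsally, beside -0.11 and -0.10 for all genes. Rescaling the libraries by median ratios moved the all-gene medians to -0.02 in both regions and the all-gene calls to 2179 higher and 2261 lower medially (1276 and 4081 as deposited) and 2109 higher and 1920 lower dorsally (1343 and 3727), and left 1 higher and 6 lower members medially and 2 higher and 6 lower dorsally. The mutant and control libraries did not overlap for 5 members medially and 8 dorsally, beside 30.4% and 24.8% of all genes. Of the 29 tested members, 7 passed in the same direction in both regions: Lama1 was higher, and Lamb1, Lama5, Col2a1, Col9a2, Col9a3 and Col16a1 were lower. In a bulk sample, fewer cells of a type and less RNA per cell cannot be told apart.

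**Figure D2:**
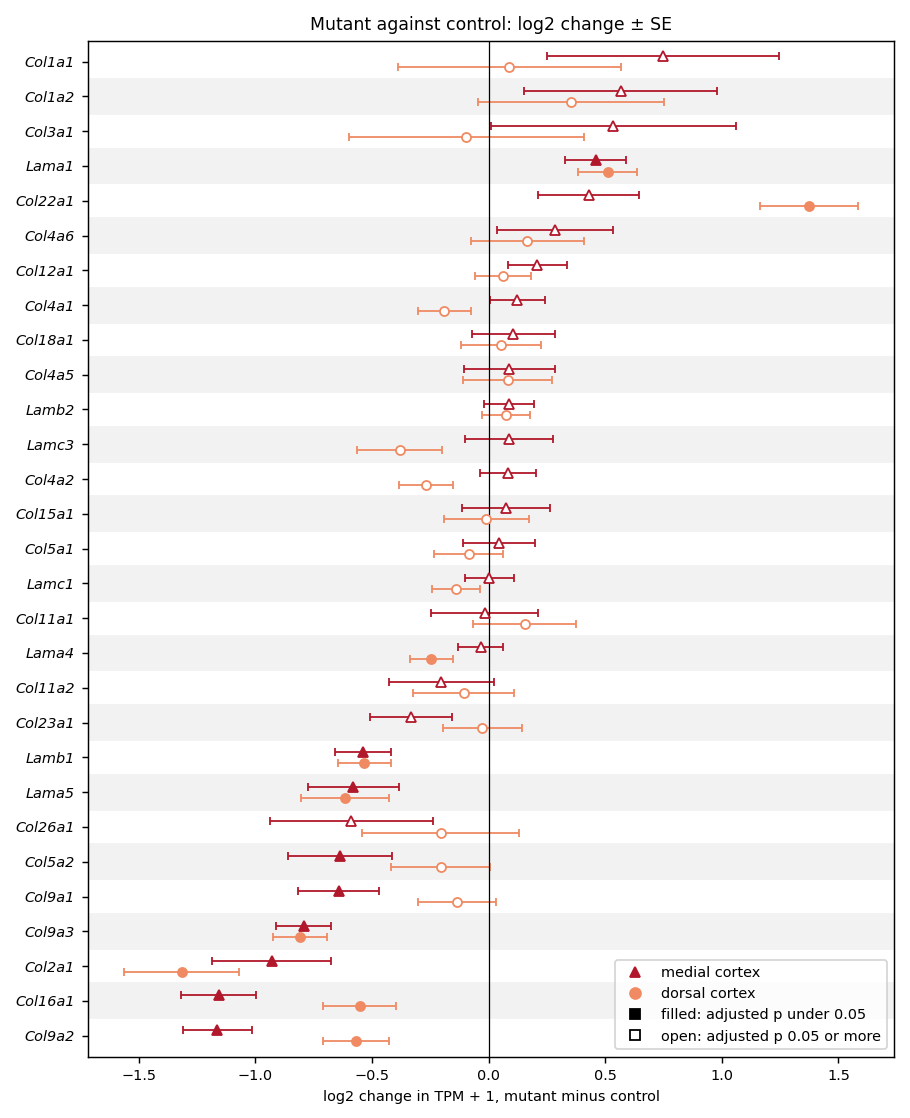
Log2 change in TPM + 1 of the mutant over the control, with SE, for the 29 tested members in medial (triangles) and dorsal (circles) cortex; filled symbols passed an adjusted p of 0.05. Lama1 lies to the right of 0 and Lamb1, Lama5, Col9a3, Col2a1, Col16a1 and Col9a2 to the left of it in both regions, while Col22a1 passed only in the dorsal comparison.

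The laminin chains moved in different directions. Lama1 (chromosome 17, 67697259 to 67822647, GRCm38) encodes the alpha chain of laminin-111, the laminin of early embryonic basement membranes and of the pial one. It had 15.1, 13.7, 24.0 and 14.54 TPM in the mutant medial libraries, against 10.9, 10.3, 11.9, 12.6 and 12.8 TPM in the control medial libraries. In dorsal cortex it had 12.2, 9.82, 13.8 and 9.97 TPM in mutants, against 6.97, 7.69 and 8.76 TPM (lowest, median and highest) in controls. Every mutant library lay above every control library of its region. The log2 change was 0.46 ± 0.13 medially (adjusted p = 0.0094) and 0.51 ± 0.13 dorsally (adjusted p = 0.0041). Without mutant medial library 3, the highest of its group, the medial change was 0.29 (adjusted p = 0.038).

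Lama5 (chromosome 2, 180176373 to 180225859), whose product is the alpha chain of laminin-511 in mature vascular and epithelial basement membranes, went the opposite way. Its levels were 3.57, 2.54, 5.597 and 3.64 TPM in mutant medial libraries, against 5.30, 5.51, 6.06, 5.75 and 7.88 TPM in control medial libraries. Mutant dorsal libraries had 1.88, 1.41, 3.73 and 1.93 TPM, against 2.72, 3.76 and 5.32 TPM (lowest, median and highest) in control dorsal libraries. Library 3 of the mutants was the highest of its group in both regions and the only one to overlap the controls. Lama5 fell by 0.58 ± 0.20 medially (adjusted p = 0.025) and by 0.62 ± 0.19 dorsally (adjusted p = 0.015). Medially it no longer passed under median-ratio rescaling (adjusted p = 0.053), under quantile normalization (0.115) and without control medial library 6 (0.069) or mutant medial library 1, 2 or 4 (0.051 to 0.102), and dorsally it no longer passed without mutant dorsal library 2 (0.061).

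Lamb1 (chromosome 12, 31265234 to 31329644) encodes the beta chain of laminin-111, laminin-411 and laminin-511. It had 13.1, 12.5, 19.6 and 15.4 TPM in the mutant medial libraries and 20.7, 20.6, 22.3, 21.5 and 25.9 TPM in the control medial libraries. The mutant dorsal libraries had 14.4, 10.8, 15.6 and 13.2 TPM, against 17.7, 19.7 and 22.3 TPM (lowest, median and highest) in the control dorsal libraries. The groups did not overlap in either region. The log2 change was -0.54 ± 0.12 medially (adjusted p = 0.0016) and -0.53 ± 0.11 dorsally (adjusted p = 0.0014), and it passed under each alternative and without each library.

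Lamb2, the beta chain that takes the place of Lamb1 in laminin-121 and laminin-521, did not pass in either region. It averaged 31.0 ± 2.76 TPM in mutant medial and 29.1 ± 2.60 TPM in control medial libraries, and 24.5 ± 4.51 TPM in mutant dorsal and 23.0 ± 2.48 TPM in control dorsal libraries (SD, n = 4, 5, 4 and 6). The common gamma chain Lamc1 did not pass either, with 21.2 ± 3.66 TPM in mutant medial and 21.02 ± 1.87 TPM in control medial libraries, and 18.2 ± 2.58 TPM in mutant dorsal and 20.0 ± 1.66 TPM in control dorsal libraries. Lama4, the alpha chain of the vascular laminin-411, averaged 5.31 ± 0.591 TPM in mutant dorsal and 6.48 ± 0.678 TPM in control dorsal libraries. Its log2 change of -0.25 ± 0.09 passed narrowly (adjusted p = 0.046), and the call was lost under 5 alternatives, among them median-ratio rescaling (0.167) and a term for sex (0.090), and in 10 of the 19 fits without 1 library (named in the closing section). Medially its log2 change was -0.03 ± 0.10 (adjusted p = 0.81). Lamc3, a gamma chain of low level, did not pass in either region; its dorsal log2 change of -0.38 ± 0.18 (adjusted p = 0.11) passed without mutant medial library 3 (0.028) and when only the dorsal libraries were fitted (0.030), and its dorsal groups did not overlap.

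Because the chains moved apart, their proportions differed between the genotypes. Ratios of TPM within a library do not depend on the scaling of that library; they were formed after the values had been seen and are given without a test. Lama1 to Lama5 was 4.24, 5.41, 4.28 and 4.00 in the mutant medial libraries, against 2.05, 1.88, 1.96, 2.19 and 1.63 in the control medial libraries. In dorsal cortex the ratio was 6.48, 6.99, 3.69 and 5.18 in mutants, against 1.44, 2.06 and 2.56 (lowest, median and highest) in controls. The lowest mutant value of either region thus stood above the highest control value. Lamb2 to Lamb1 was 2.29, 2.21, 1.74 and 2.09 in the mutant medial libraries, against 1.24, 1.51, 1.20, 1.45 and 1.18 in the control medial libraries. Mutant dorsal libraries had 1.70, 1.78, 1.94 and 1.84, against 1.10, 1.16 and 1.20 (lowest, median and highest) in control dorsal libraries. Lama1 held a median of 63.0% of the TPM of the 5 alpha chains in mutant medial and 49.5% in control medial libraries, and 59.2% in mutant dorsal and 40.3% in control dorsal libraries. Lamc1 made up 87.2% to 95.3% of the gamma chains in the 19 libraries.

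**Figure D3:**
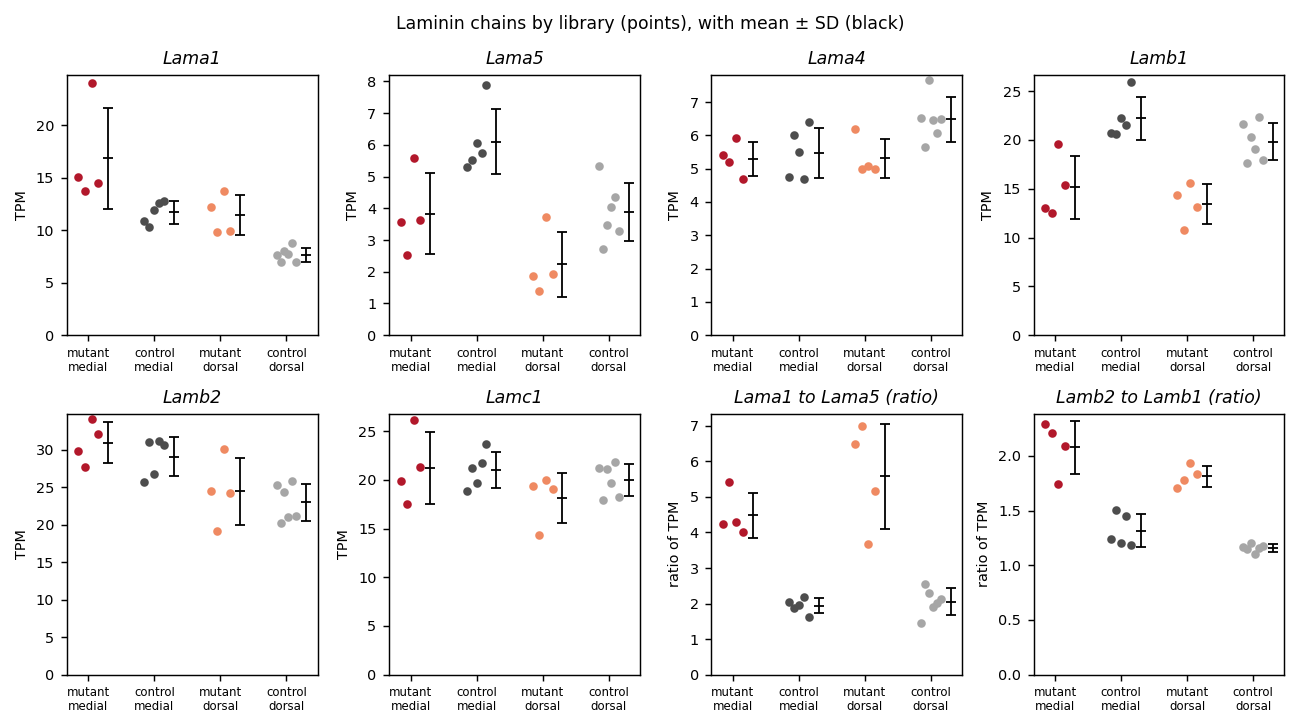
TPM of 6 laminin chains and 2 ratios between chains, with 1 point per library and the mean ± SD of each group in black; groups run mutant medial, control medial, mutant dorsal, control dorsal. The ratio of Lama1 to Lama5 lies between 3.69 and 6.99 in the mutant libraries and between 1.44 and 2.56 in the control libraries.

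The type IV collagens were the most abundant members and none of their 4 tested chains passed the test between mutant and control in either region. Col4a1 and Col4a2 make the trimer found in nearly every basement membrane, and their genes lie head to head on chromosome 8 (Col4a1, 11198423 to 11312826, minus strand; Col4a2, 11312805 to 11449287, plus strand; GRCm38). In RefSeq (GRCm38.p6) their starts lie 21 bases apart, and their windows, from 250 bases before to 50 after each start, share 78 bases at chr8:11312777-11312854. Both windows are shown 5′ to 3′ on the strand of their gene. The shared stretch is in capitals, because it spans the starts of both genes.
Col4a1 (chr8:11312777-11313076, minus strand): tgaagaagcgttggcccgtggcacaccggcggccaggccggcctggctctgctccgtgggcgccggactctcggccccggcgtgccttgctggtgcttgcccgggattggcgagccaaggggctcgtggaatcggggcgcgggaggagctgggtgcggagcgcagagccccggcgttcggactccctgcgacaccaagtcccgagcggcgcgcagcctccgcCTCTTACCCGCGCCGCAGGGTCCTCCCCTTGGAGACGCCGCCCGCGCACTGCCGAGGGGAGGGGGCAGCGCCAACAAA
Col4a2 (chr8:11312555-11312854, plus strand): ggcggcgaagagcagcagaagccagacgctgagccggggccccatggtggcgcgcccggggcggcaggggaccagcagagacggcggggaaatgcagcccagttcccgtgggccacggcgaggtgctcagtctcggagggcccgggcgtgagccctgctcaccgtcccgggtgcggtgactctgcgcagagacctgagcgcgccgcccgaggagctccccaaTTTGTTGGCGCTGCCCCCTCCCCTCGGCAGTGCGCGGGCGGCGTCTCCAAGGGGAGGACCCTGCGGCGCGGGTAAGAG

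The levels of these neighbours kept a nearly fixed proportion. Col4a1 had 49.2, 57.3, 75.0 and 60.8 TPM in mutant medial libraries and 47.2, 62.4, 55.4, 48.9 and 62.3 TPM in control medial libraries. It had 60.8, 51.1, 52.1 and 58.9 TPM in mutant dorsal libraries, against 54.5, 62.0 and 76.6 TPM (lowest, median and highest) in control dorsal libraries. Col4a2 averaged 31.3 ± 5.61 TPM in mutant medial and 29.3 ± 3.79 TPM in control medial libraries, and 28.3 ± 3.32 TPM in mutant dorsal and 34.4 ± 4.49 TPM in control dorsal libraries. Col4a1 to Col4a2 ran from 1.73 to 2.04 over the 19 libraries, with a mean of 1.91 ± 0.078 (SD). The log2 changes were 0.12 ± 0.12 medially (adjusted p = 0.43) and -0.19 ± 0.11 dorsally (adjusted p = 0.20) for Col4a1, and 0.08 ± 0.12 (adjusted p = 0.62) and -0.27 ± 0.12 (adjusted p = 0.078) for Col4a2. Without control dorsal library 6 the dorsal fall of Col4a2 passed (log2 change -0.32, adjusted p = 0.043). Exons of the pair overlap by 22 bases on opposite strands, and whether strand was used in counting is not given in the sources used here. Endothelial markers, from cells that make these chains, summed to 145 to 182 TPM in mutant medial, 147 to 185 TPM in control medial, 147 to 175 TPM in mutant dorsal and 171 to 191 TPM in control dorsal libraries, and 1 of 12 passed dorsally (lower) and none medially. Pericyte markers summed to 56.8 to 73.1 TPM in mutant medial, 72.9 to 91.3 TPM in control medial, 54.4 to 74.5 TPM in mutant dorsal and 78.3 to 96.0 TPM in control dorsal libraries, with 2 of 9 lower medially and 3 of 9 dorsally, beside 30.2% and 27.6% of all genes; their part in the laminin and collagen differences was not tested.

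Col4a5 and Col4a6 are a second head-to-head pair, on chromosome X (Col4a5, 141475385 to 141689234, plus strand; Col4a6, 141165403 to 141474076, minus strand), and their products join in a type IV trimer of a few specialised basement membranes. Their RefSeq starts lie 1343 bases apart, so their windows do not meet. They are shown for comparison with the pair above, in capitals the GC box (GGGCGG or its reverse complement CCGCCC) and the CCAAT box (CCAAT or its reverse complement ATTGG).
Col4a5 (chrX:141475169-141475468, plus strand): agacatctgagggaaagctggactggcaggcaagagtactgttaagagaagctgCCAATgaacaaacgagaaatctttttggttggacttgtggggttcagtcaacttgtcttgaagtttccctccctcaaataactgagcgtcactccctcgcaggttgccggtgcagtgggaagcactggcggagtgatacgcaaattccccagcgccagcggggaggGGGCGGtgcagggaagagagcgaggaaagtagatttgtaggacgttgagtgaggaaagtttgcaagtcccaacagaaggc
Col4a6 (chrX:141474027-141474326, minus strand): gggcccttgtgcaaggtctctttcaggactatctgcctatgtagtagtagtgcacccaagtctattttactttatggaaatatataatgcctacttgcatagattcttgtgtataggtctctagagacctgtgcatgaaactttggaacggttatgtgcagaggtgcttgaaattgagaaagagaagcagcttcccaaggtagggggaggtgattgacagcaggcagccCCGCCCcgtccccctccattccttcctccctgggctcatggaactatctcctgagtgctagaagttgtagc

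Col4a5 had 36.6, 18.97, 25.3 and 20.0 TPM in mutant medial libraries and 25.2, 30.1, 18.4, 17.5 and 25.5 TPM in control medial libraries. The mutant dorsal libraries had 15.5, 9.27, 16.3 and 9.996 TPM, against 9.97, 11.4 and 13.8 TPM (lowest, median and highest) in the control dorsal libraries. Mutants and controls overlapped in both regions, and all medial libraries lay above all dorsal libraries of the same genotype. Col4a6 averaged 9.87 ± 4.05 TPM in mutant medial and 7.68 ± 2.03 TPM in control medial libraries, and 3.84 ± 1.79 TPM in mutant dorsal and 3.10 ± 0.551 TPM in control dorsal libraries (SD, n = 4, 5, 4 and 6). Between mutant and control the log2 change of Col4a5 was 0.09 ± 0.20 medially (adjusted p = 0.75) and 0.08 ± 0.19 dorsally (adjusted p = 0.77). In the mutant, Col4a5 was 0.92 ± 0.21 (adjusted p = 0.0062) and Col4a6 1.18 ± 0.26 (adjusted p = 0.0062) higher in medial than in dorsal cortex on the log2 scale; in the control the differences were 0.92 ± 0.18 (adjusted p = 0.00092) and 1.06 ± 0.23 (adjusted p = 0.0018). Col4a5 to Col4a1 was 0.330 to 0.745 in mutant medial and 0.333 to 0.533 in control medial libraries, and 0.170 to 0.312 in mutant dorsal and 0.1503 to 0.253 in control dorsal libraries. Both genes are X-linked, and their regional calls also passed with a term for sex. The other type IV chains, Col4a3 and Col4a4, stayed under 1 TPM in every library.

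The falls of more than 1 on the log2 scale were those of Col2a1 dorsally and of Col9a2 and Col16a1 medially. Col2a1 (chromosome 15, 97975602 to 98004695) encodes type II collagen, known best from cartilage. It had 43.5, 12.9, 34.1 and 19.1 TPM in mutant medial libraries, against 39.1, 65.8, 41.0, 57.3 and 42.0 TPM in control medial libraries. In dorsal cortex it had 8.66, 8.74, 11.8 and 9.71 TPM in mutants, against 20.7, 25.4 and 32.9 TPM (lowest, median and highest) in controls. The dorsal groups did not overlap, whereas mutant medial library 1 lay within the control range. Col2a1 fell by 0.93 ± 0.26 medially (adjusted p = 0.0077; 0.054 when only the medial libraries were fitted) and by 1.32 ± 0.25 dorsally (adjusted p = 0.00049). Of a list of cartilage and head mesenchyme markers, 7 genes were in the table and 5 stayed under 1 TPM in all libraries, with Acan, Matn1 and Comp at no more than 0.0982, 0.119 and 0.107 TPM. The summed level of the list was 1.03 to 7.68 TPM in mutant medial, 4.12 to 8.82 TPM in control medial, 1.57 to 2.22 TPM in mutant dorsal and 1.91 to 3.37 TPM in control dorsal libraries. Of its 2 tested genes, Prrx1, a transcription factor of mesenchyme, fell in the mutant by 1.08 ± 0.17 medially (adjusted p = 8.2e-05) and 0.60 ± 0.16 dorsally (adjusted p = 0.0066), and both genes were higher medially in the control. Msx1, the other tested gene, was not called between genotypes. It averaged 2.21 TPM in mutant medial and 1.96 TPM in control medial libraries, and 0.245 TPM in mutant dorsal and 0.155 TPM in control dorsal libraries. The part of these markers in the differences of Col2a1 was not tested.

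Type IX collagen, a fibril-associated partner of type II, is made of the products of Col9a1, Col9a2 and Col9a3. Col9a3 (chromosome 2, 180597790 to 180622189) had 8.56, 6.70, 8.45 and 7.23 TPM in mutant medial libraries, against 11.96, 12.5, 16.9, 13.0 and 16.7 TPM in control medial libraries. Its mutant dorsal libraries had 6.93, 8.22, 5.87 and 8.51 TPM, against 11.9, 13.7 and 15.7 TPM (lowest, median and highest) in control dorsal libraries. Neither region showed any overlap. The log2 change was -0.79 ± 0.12 medially (adjusted p = 6.1e-05) and -0.81 ± 0.11 dorsally (adjusted p = 3.1e-05). An exon of Col9a3 overlaps Tcfl5 on the opposite strand by 234 bases, so reads there cannot be assigned without strand.

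Col9a2 had 2.10, 1.502, 1.82 and 1.18 TPM in mutant medial libraries, against 6.60, 5.31, 4.50, 4.07 and 4.26 TPM in control medial libraries. Mutant dorsal libraries had 1.72, 0.800, 1.69 and 1.30 TPM, against 2.07, 2.40 and 3.10 TPM (lowest, median and highest) in control dorsal libraries. The groups stayed apart in both regions, with log2 changes of -1.16 ± 0.15 medially (adjusted p = 1.1e-05) and -0.57 ± 0.14 dorsally (adjusted p = 0.0043). Col9a1, the least abundant chain, averaged 0.411 ± 0.251 TPM in mutant medial and 1.23 ± 0.529 TPM in control medial libraries and fell by 0.64 ± 0.17 (adjusted p = 0.0069). In dorsal cortex it averaged 0.522 ± 0.203 TPM in mutants and 0.674 ± 0.254 TPM in controls (log2 change -0.14 ± 0.17, adjusted p = 0.56). On this scale of log2(TPM + 1) the change of so low a gene is understated. To a lesser degree the same holds for Col9a2, Col16a1 and Col22a1 where they stand at a few TPM. Sizes of their changes in regions of unlike level are therefore not directly comparable.

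Col16a1 (chromosome 4, 130047840 to 130099283) encodes a fibril-associated collagen found near basement membranes. It had 2.80, 2.07, 4.08 and 2.13 TPM in mutant medial libraries, against 8.69, 9.65, 5.32, 5.26 and 8.25 TPM in control medial libraries. The mutant dorsal libraries had 1.55, 1.26, 1.55 and 1.35 TPM, against 2.27, 2.49 and 2.96 TPM (lowest, median and highest) in the control dorsal libraries. No mutant library reached a control library of its region, and the log2 change was -1.16 ± 0.16 medially (adjusted p = 3.3e-05) and -0.55 ± 0.16 dorsally (adjusted p = 0.010).

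Of the fibrillar collagens other than Col2a1, Col5a2 was called in the medial comparison. It encodes a chain of type V collagen, which controls fibril diameter. It had 15.8, 13.98, 14.9 and 9.40 TPM in mutant medial libraries, against 27.5, 34.7, 14.4, 13.1 and 23.7 TPM in control medial libraries, and the groups overlapped through control libraries 4 and 5. The log2 change of -0.64 ± 0.22 (adjusted p = 0.029) lost its call under median-ratio rescaling (0.066), with a term for sex (0.146), when only the medial libraries were fitted (0.108), with no filter on low values (0.0501) and without control medial library 2 (0.071), 3 (0.079) or 6 (0.061) or mutant medial library 4 (0.112). Dorsally it averaged 6.75 ± 0.357 TPM in mutants and 8.04 ± 1.67 TPM in controls (log2 change -0.21 ± 0.21, adjusted p = 0.48). Its partner Col5a1 and the type XI chains Col11a1 and Col11a2 did not pass in either region.

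Col22a1 (chromosome 15, 71795795 to 72034227), a fibril-associated collagen known from muscle-tendon junctions, was the collagen called as higher in the mutant. It had 6.05, 8.24, 3.34 and 8.99 TPM in mutant dorsal libraries, against 0.941, 1.95 and 2.91 TPM (lowest, median and highest) in control dorsal libraries. In medial cortex it had 1.73, 1.61, 1.30 and 1.85 TPM in mutants, against 0.922, 1.43, 0.639, 0.722 and 1.09 TPM in controls. All mutant dorsal libraries were above all control dorsal libraries, and the medial groups overlapped through mutant library 3 and control library 3. The log2 change was 1.37 ± 0.21 dorsally (adjusted p = 6.8e-05) and 0.43 ± 0.22 medially (adjusted p = 0.13; 0.033 when only the medial libraries were fitted and 0.042 under quantile normalization). The difference of the 2 effects, medial minus dorsal, was -0.94 ± 0.30 with an adjusted p of 0.90.

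No tested member passed the test of a different mutant effect in medial and dorsal cortex, beside 0.0074% of all genes, which was 1 of 13520. At an unadjusted p under 0.05 there were 3 members (10.3%), beside 3.34% of all genes (451). A fit with the embryo as a random block raised the count over all genes to 49 and left the members at 0. Calls made in 1 region only (Col22a1 and Lama4 dorsally, Col9a1 and Col5a2 medially) are therefore not shown to differ between regions.

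RefSeq windows of 300 bases were available for 40 members, in 44 windows, and were searched on both strands. The GC box was found in 26 of 44 member windows (59.1%) and in 35.7% of the 32851 windows of all genes; the CCAAT box was in 31.8% and 37.4%, and TATAAA (or TTTATA) in 11.4% and 13.6%. The GLI consensus GACCACCCA (or TGGGTGGTC) was in 0 of 44 member windows and in 0.253% of all windows. Lama1 and Col22a1, the members called higher in the mutant, had no window and were not searched, nor were Col2a1 and Col9a3. At so low a share over all windows, 0 of 44 does not set the members apart. These matches describe letters in the windows. Those of 3 members that fell in the mutant in both regions are shown, with GC and CCAAT boxes in capitals.
Lamb1 (chr12:31265043-31265342, plus strand): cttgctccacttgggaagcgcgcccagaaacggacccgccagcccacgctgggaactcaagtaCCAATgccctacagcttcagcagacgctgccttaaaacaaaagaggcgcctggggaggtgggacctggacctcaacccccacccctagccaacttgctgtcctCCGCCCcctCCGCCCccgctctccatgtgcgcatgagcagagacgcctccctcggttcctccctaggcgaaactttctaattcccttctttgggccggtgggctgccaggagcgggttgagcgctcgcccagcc
Col9a2 (chr4:121039316-121039615, plus strand): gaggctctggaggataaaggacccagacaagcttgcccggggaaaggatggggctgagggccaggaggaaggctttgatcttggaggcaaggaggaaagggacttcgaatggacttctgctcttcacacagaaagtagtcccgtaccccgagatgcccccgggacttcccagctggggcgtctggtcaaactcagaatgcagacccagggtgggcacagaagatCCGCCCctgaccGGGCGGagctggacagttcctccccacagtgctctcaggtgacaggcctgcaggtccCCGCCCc
Col16a1 (chr4:130047590-130047889, plus strand): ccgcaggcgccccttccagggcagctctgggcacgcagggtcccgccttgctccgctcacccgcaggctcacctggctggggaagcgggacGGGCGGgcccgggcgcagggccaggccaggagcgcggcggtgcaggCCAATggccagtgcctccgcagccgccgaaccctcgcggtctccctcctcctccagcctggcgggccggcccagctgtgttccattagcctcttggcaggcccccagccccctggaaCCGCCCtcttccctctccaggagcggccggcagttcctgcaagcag

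Most members called between medial and dorsal cortex were higher medially. In the mutant 10 of 29 members passed (34.5%, 9 higher and 1 lower in medial cortex), against 18.8% of all genes. In the control 14 of 29 passed (48.3%, 13 higher and 1 lower), against 32.4% of all genes. The share of genes higher in medial cortex was 31.0% of members against 8.03% of all genes in the mutant, and 44.8% against 17.6% in the control. All 10 members called in the mutant were called in the same direction in the control: Col2a1, Col4a5, Col4a6, Col5a1, Col5a2, Col16a1, Col18a1, Lama1 and Lamb2 were higher medially and Col22a1 was lower. The groups of a comparison did not overlap for 6 members in the mutant and 9 in the control, beside 15.2% and 20.5% of all genes.

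**Figure D4:**
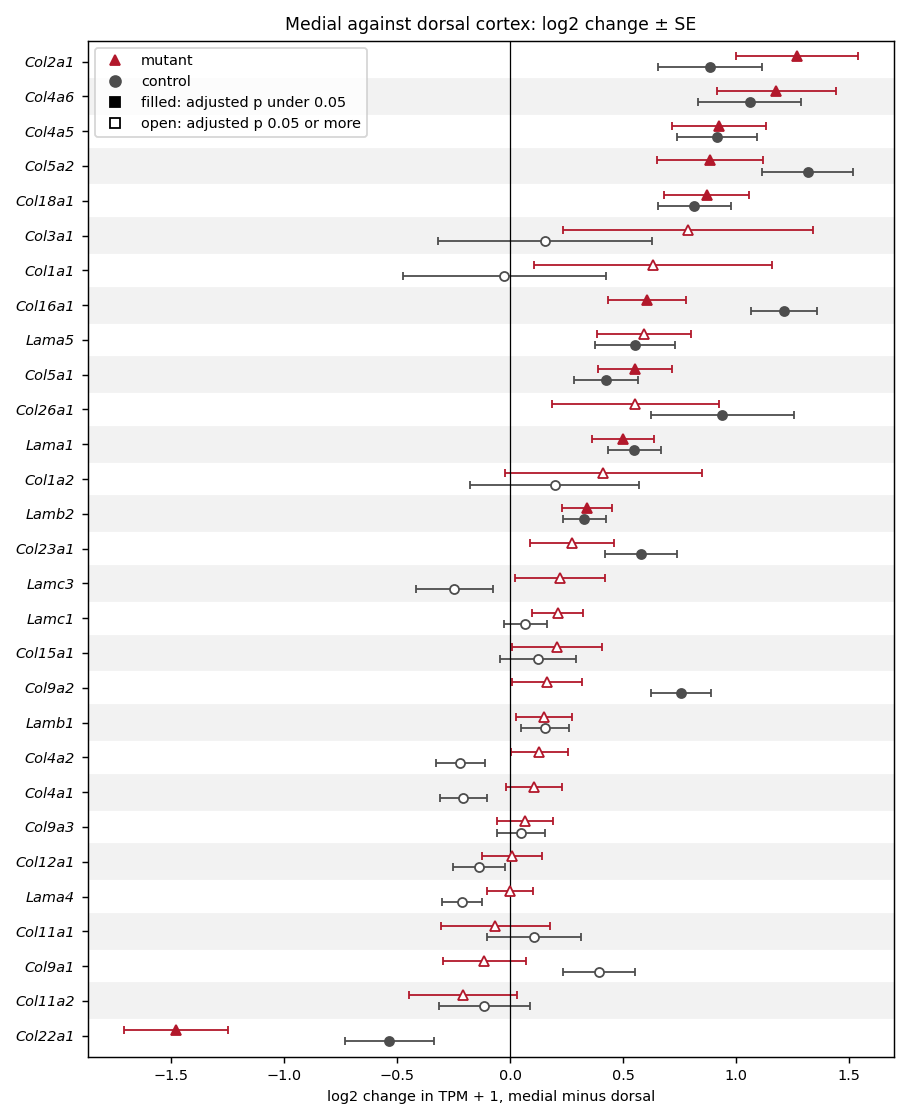
Log2 change in TPM + 1 of medial over dorsal cortex, with SE, for the 29 tested members in the mutant (triangles) and the control (circles); filled symbols passed an adjusted p of 0.05. Most filled symbols lie to the right of 0, led by Col2a1 at 1.27 in the mutant and Col5a2 at 1.32 in the control, and Col22a1 lies to the left in both.

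Col18a1 was among the members higher medially in both genotypes. It had 28.4, 24.2, 44.2 and 30.4 TPM in mutant medial libraries, against 17.3, 10.4, 25.3 and 16.3 TPM in mutant dorsal libraries. In the control it had 30.4, 32.7, 26.9, 27.1 and 27.2 TPM medially, against 13.5, 16.4 and 17.3 TPM (lowest, median and highest) dorsally. Library 3 was the highest of both mutant groups, and only the mutant groups overlapped. The log2 difference was 0.87 ± 0.19 in the mutant (adjusted p = 0.0055) and 0.81 ± 0.16 in the control (adjusted p = 0.0010). Col2a1 was 1.27 ± 0.27 higher medially in the mutant (adjusted p = 0.0051) and 0.88 ± 0.23 in the control (adjusted p = 0.0070). Col5a2 was 0.88 ± 0.23 (adjusted p = 0.014) and Col16a1 0.61 ± 0.17 (adjusted p = 0.020) higher medially in the mutant, with 1.32 ± 0.20 (adjusted p = 0.00015) and 1.21 ± 0.15 (adjusted p = 3.5e-05) in the control.

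Among the laminins, Lama1 was higher medially by 0.50 ± 0.14 in the mutant (adjusted p = 0.017) and by 0.55 ± 0.12 in the control (adjusted p = 0.0019), and Lamb2 by 0.34 ± 0.11 (adjusted p = 0.041) and 0.33 ± 0.10 (adjusted p = 0.014). Lama5 passed in the control (0.55 ± 0.18, adjusted p = 0.022; 0.051 without control dorsal library 2 and 0.063 without control medial library 6) and stood at 0.59 ± 0.21 in the mutant (adjusted p = 0.053; 0.0020 with the embryo as a block). Col9a2 (0.76 ± 0.13, adjusted p = 0.00042), Col23a1 (0.58 ± 0.16, adjusted p = 0.0092) and Col26a1 (0.94 ± 0.32, adjusted p = 0.029) were called in the control and not in the mutant. The call of Col26a1 was lost in 6 fits without 1 library (control dorsal 1, 3 and 5, control medial 2, 3 and 6). With the embryo as a block, Col9a1 (0.41, adjusted p = 0.0093) and Lama4 (-0.21, adjusted p = 0.0092) also passed in the control and Lamc1 (0.21, adjusted p = 0.035) in the mutant. Col22a1 was lower medially by 1.48 ± 0.23 in the mutant, as a log2 change of -1.48 (adjusted p = 0.0021), and -0.54 ± 0.20 in the control (adjusted p = 0.043), where the call was lost without control dorsal library 2, 3, 5 or 6, mutant dorsal library 1, control medial library 2, 4, 5 or 6 or mutant medial library 2 (adjusted p 0.051 to 0.102), with the number in the title as a block (0.055) and with no filter on low values (0.072).

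The regional calls in the mutant rested on few libraries. Without mutant medial library 3 there were 5 of them, without mutant dorsal library 2 or 4 there were 6 each, and a fit to the mutant libraries alone gave 0 members and 0 of all genes, with 11 members at an unadjusted p under 0.05. Lama1, Col16a1, Col5a1, Col5a2 and Lamb2 were the calls lost without mutant medial library 3, and Lama1 stood at 0.33 there (adjusted p = 0.062). Lama1, Col16a1, Col5a1 and Lamb2 also lost their calls without mutant dorsal library 2 or 4 (adjusted p 0.057 to 0.179), Lamb2 without mutant dorsal library 1 (0.065), and Col5a1 and Lamb2 without mutant medial library 1 (0.059 and 0.062); Lamb2 also without mutant medial library 4 (0.082). In the control, Col5a1 (0.42 ± 0.14, adjusted p = 0.027) lost its call without control dorsal library 2 or 6 or control medial library 3 (0.056 to 0.096). Markers of radial glia summed to 2992 to 3325 TPM in mutant medial, 3077 to 3863 TPM in control medial, 2543 to 2737 TPM in mutant dorsal and 2458 to 2815 TPM in control dorsal libraries. Of these markers, 5 of 8 were called higher medially in the mutant and 6 of 8 in the control, beside 8.03% and 17.6% of all genes. Fabp7 averaged 686 TPM in mutant medial and 799 TPM in mutant dorsal libraries, and 1246 TPM in control medial and 1074 TPM in control dorsal libraries. The part of radial glia markers in the regional differences was not tested.

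The interstitial collagens of connective tissue were low in nearly all libraries and varied widely among replicates. Col3a1 had 3.43, 1.96, 31.0 and 5.84 TPM in mutant medial libraries, against 2.54, 3.63, 3.34, 3.60 and 9.03 TPM in control medial libraries. The dorsal values were 7.14, 2.11, 3.26 and 2.01 TPM in mutants, against 2.36, 2.92 and 7.36 TPM (lowest, median and highest) in controls. Col1a1 had 0.874, 0.433, 13.3 and 2.26 TPM in mutant medial libraries, against 0.894, 0.779, 0.462, 0.724 and 2.69 TPM in control medial libraries. Col1a2 had 0.898, 0.873, 10.02 and 1.87 TPM in mutant medial libraries, against 0.915, 1.00, 0.929, 0.792 and 2.88 TPM in control medial libraries. Mutant medial library 3 was the highest of all in the 3 genes, followed in the control medial group by library 6. None of the 3 passed between mutant and control. The medial log2 changes of Col3a1, Col1a1 and Col1a2 were 0.54 ± 0.52, 0.75 ± 0.50 and 0.57 ± 0.41 with this library and -0.17, 0.05 and -0.02 without it.

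The same library led the type VI collagens, microfibril proteins of connective tissue that stayed below the filter, with 3.31 TPM of Col6a1, 1.62 TPM of Col6a2 and 2.92 TPM of Col6a3, against 0.118 to 0.630, 0.217 to 0.452 and 0.313 to 0.563 TPM in the rest of its group. Lum, a proteoglycan gene of meningeal fibroblasts, had 0.906, 0.0622, 8.80 and 1.56 TPM in mutant medial libraries, and at most 2.46 TPM in control medial, 1.51 TPM in mutant dorsal and 1.03 TPM in control dorsal libraries. Over the whole list of 15 meningeal fibroblast markers, of which 5 were tested, 6 stayed under 1 TPM in all libraries and none was at 0 in all, the summed level was 11.8 to 42.5 TPM in mutant medial, 21.6 to 42.6 TPM in control medial, 10.7 to 17.3 TPM in mutant dorsal and 13.7 to 19.04 TPM in control dorsal libraries. Mutant medial library 3 summed to 40.9 TPM, below mutant medial library 1 (42.5 TPM) and control medial library 3 (42.6 TPM). Both medial groups reached higher sums than the dorsal groups. Of the 5 tested markers, 1 passed between regions in the control (higher) and none in the mutant. Between mutant and control 1 of the 5 was lower in each region, beside 30.2% of all genes medially and 27.6% dorsally. The part of these cells in the results above was not tested. Foxc1, a regulator of meningeal development, did not exceed 3.62 TPM in any library.

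**Figure D5:**
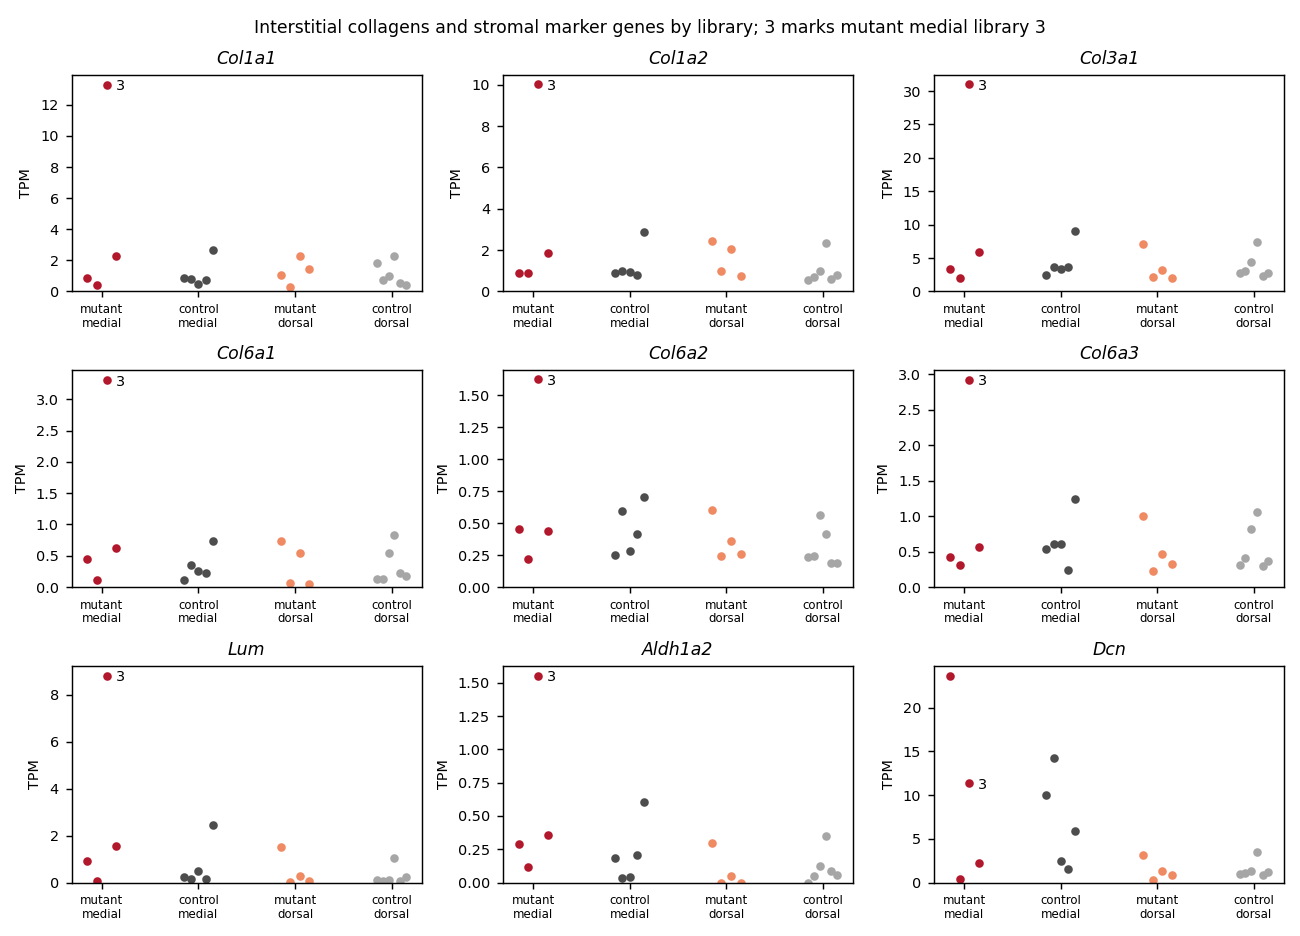
TPM of 6 interstitial collagen genes and the marker genes Lum, Aldh1a2 and Dcn, with 1 point per library in the order mutant medial, control medial, mutant dorsal, control dorsal; the point marked 3 is mutant medial library 3. That library lies far above the others in the collagens (31.0 TPM of Col3a1) and in Lum (8.80 TPM), and is not the highest in Dcn.

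Most other members were barely expressed. Col8a1 and Col8a2, short-chain collagens of vessels and the eye, were under 1 TPM except in control medial library 4, which had 1.00 and 3.44 TPM and also 934 TPM of Ttr, the leading gene of the choroid plexus. The choroid plexus markers summed to 993 TPM in that library, against 4.11 TPM in the lowest of its group. Col10a1, of hypertrophic cartilage, reached at most 0.125 TPM. Lama2, the alpha chain of muscle and nerve basement membranes, lay between 0.131 and 0.983 TPM, and Lama3 and Lamb3, laminin chains of epithelia, reached at most 0.531 TPM.

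Partners of these proteins were counted in lists drawn up with earlier results of these data known. Beside their counts stand the shares of all genes tested, 9.44% higher and 30.2% lower in mutant medial cortex and 9.93% higher and 27.6% lower in mutant dorsal cortex. Of 21 tested genes of collagen synthesis and processing, 0 were higher and 5 lower in mutant medial cortex, and 0 were higher and 3 lower in mutant dorsal cortex, smaller shares than over all genes. Bmp1, the protease that trims procollagens and laminin chains, averaged 30.1 ± 1.05 TPM in mutant medial and 44.0 ± 2.55 TPM in control medial libraries, and 29.9 ± 1.65 TPM in mutant dorsal and 43.7 ± 1.12 TPM in control dorsal libraries (SD, n = 4, 5, 4 and 6). It fell by 0.53 ± 0.05 (adjusted p = 2.0e-07) and 0.54 ± 0.04 (adjusted p = 7.0e-08). Serpinh1, the collagen chaperone HSP47, did not pass between genotypes (-0.17 ± 0.10 medially, adjusted p = 0.19, and -0.03 ± 0.10 dorsally, adjusted p = 0.84), and it was 0.46 ± 0.10 higher medially in the mutant (adjusted p = 0.0062) and 0.60 ± 0.09 in the control (adjusted p = 0.00012). In that list of 21 tested genes, 7 were higher and 1 lower medially in the mutant, and 11 and 1 in the control. Over all genes tested, 8.03% were higher and 10.8% lower medially in the mutant, and 17.6% and 14.9% in the control. Of 4 tested lysyl oxidases and relatives, which cross-link collagen and elastin, Loxl1 was called, with 44.0, 9.13, 15.7 and 14.3 TPM in mutant medial libraries, against 91.8, 75.3, 45.7, 27.8 and 66.0 TPM in control medial libraries (log2 change -1.64 ± 0.39, adjusted p = 0.0031). The medial groups overlapped through mutant library 1 and control library 5. In dorsal cortex, where 1 of the 4 genes was called lower, Loxl1 had 0.962, 0.318, 1.75 and 1.17 TPM in mutants. The control dorsal libraries had 4.48 to 10.8 TPM of Loxl1, so the dorsal groups did not overlap.

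Of 13 tested receptors, 2 were higher and 2 lower in mutant medial cortex, and 2 higher and 3 lower in mutant dorsal cortex, beside 39.6% and 37.5% of all genes called in either direction; the receptors were not called more often than genes in general in the medial comparison (4 of 13) and about as often in the dorsal one (5 of 13). Bcam, a receptor of laminin-511, had 2.76, 5.45, 3.13 and 2.82 TPM in mutant medial libraries, against 1.02, 0.586, 1.99, 0.631 and 0.971 TPM in control medial libraries, and 6.00, 5.45, 4.77 and 3.70 TPM in mutant dorsal libraries, against at most 1.53 TPM in control dorsal libraries. It was higher in the mutant by 1.16 ± 0.19 medially (adjusted p = 0.00012) and 1.53 ± 0.18 dorsally (adjusted p = 3.8e-06), and the groups did not overlap. Sdc1, a heparan sulfate co-receptor, was higher by 0.45 ± 0.07 (adjusted p = 4.3e-05) and 0.42 ± 0.06 (adjusted p = 5.3e-05). Itga6, a laminin-binding integrin chain of radial glia, fell by 0.26 ± 0.07 medially (adjusted p = 0.0060) and 0.35 ± 0.07 dorsally (adjusted p = 0.00057). The common integrin chain Itgb1 averaged 171 ± 7.38 TPM in mutant medial and 167 ± 9.39 TPM in control medial libraries, and 159 ± 10.1 TPM in mutant dorsal and 150.5 ± 6.12 TPM in control dorsal libraries, and neither it nor Dag1, which encodes dystroglycan, passed between genotypes.

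Of 16 other basement membrane genes tested, 0 were higher and 1 lower in mutant medial cortex, and 2 higher and 3 lower in mutant dorsal cortex, in both regions a smaller share than the 39.6% and 37.5% of all genes. The 2 higher dorsally included Fbln1 (0.41, adjusted p = 0.0019), which encodes the matrix protein fibulin-1. Agrn, a heparan sulfate proteoglycan that binds laminin, fell by 0.66 ± 0.13 medially (adjusted p = 0.00058) and 0.42 ± 0.12 dorsally (adjusted p = 0.013), with 75.9 ± 9.93 TPM in mutant medial and 120 ± 11.3 TPM in control medial libraries. Ntn4, a netrin that binds laminin networks, fell by 0.65 ± 0.15 dorsally (adjusted p = 0.0026). The linkers Nid1 and Hspg2 (perlecan) did not pass between genotypes. Of 13 listed genes that glycosylate dystroglycan, 9 were found by symbol and tested, and the level of the others is not known. Of these 9 tested genes, 2 were lower in each region, Pomgnt1 and Pomgnt2, and none was higher. Of 12 tested matrix metalloproteinases and their inhibitors, 5 were lower medially and 6 dorsally, and none was higher, beside 30.2% and 27.6% of all genes lower; whether the list stands apart was not tested. Mmp24 fell by 1.25 ± 0.14 medially (adjusted p = 2.8e-06) and 0.91 ± 0.13 dorsally (adjusted p = 5.0e-05), and Timp2 by 0.54 ± 0.09 (adjusted p = 0.00016) and 0.36 ± 0.09 (adjusted p = 0.0030).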

How the data were processed

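Per the labels, total RNA came from an RNeasy Micro column and a TruSeq Stranded Total RNA preparation. The authors deposited 1 table of TPM with a column per library, on mm10 per the submitters' processing notes; the sources used here give no aligner, quantifier or use of strand. Depth is unknown. Columns of other samples numbered 0.

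Members were matched by symbol, and the level of 1 untested member is not reported here; the members and gene lists were chosen with earlier results of these data known. The 13520 genes that reached 1 TPM in 4 or more libraries were fitted as log2(TPM + 1), with a pseudocount of 1, by limma 3.58.1 under R 4.3.3 and statmod 1.5.0, using 1 mean per group over the 19 libraries, trend and robust moderation, and Benjamini-Hochberg adjustment over all genes in each of 5 comparisons. The fit was tested on simulated data. Named with full statistics are members past the threshold (at most 8 per comparison by adjusted p) and Col4a1, Col4a2, Lama1, Lamb1 and Lamc1; of each partner list up to 4 genes by adjusted p plus Serpinh1, Itgb1, Dag1, Nid1 and Hspg2; others by counts. Col26a1, Col23a1, Lama4 and the interstitial collagens, Loxl1 and Bcam by library, and the markers singled out were also described after their values were seen. Ratios were formed after the values had been seen.

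Whether libraries of a group came from separate embryos is not stated; p-values then measure only the spread between these libraries, which may be technical. Deviations from group means of dorsal and medial libraries with the same genotype and number correlated in 9 of 9 pairs (r from 0.549 to 0.795), and those of mutant and control libraries of the same region and number did not (r from -0.436 to 0.138 in 7 pairs). Within a genotype a number was therefore taken to mark an embryo; this pairing comes from the data. Positions are from GENCODE M21 (GRCm38, the assembly of mm10) and promoter windows from RefSeq (GRCm38.p6). Alternatives were other pseudocounts (0.1, 0.5), filters (none, 5 TPM), scalings, blocks, a term for sex, moderation and leaving out each library. Python 3.11.15 and matplotlib 3.10.9 were used.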

Additional observations from a re-analysis of the deposited data

Results flagged for a closer look

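Over 148 groups (37 members in 4 groups) 23 values, each of 1 member in 1 library, lay far from the rest of their group. Chance alone flags about 1 group in 20, but members were looked at if they reached 1 TPM in any library, and 5 reached it in only 1 library, the one that stood apart, so that rate does not apply to them. Among the 29 members tested, 15 values in 116 groups stood apart. Of all 23 values, mutant medial library 3 held 10, each as the highest of its group: Col3a1 (31.0 TPM), Lama1 (24.0), Col1a1 (13.3), Col1a2 (10.02), Col6a1 (3.31), Lamc3 (3.29), Col6a3 (2.92), Col6a2 (1.62), Col27a1 (1.58) and Col8a2 (0.919). Among these, Col6a1, Col6a2, Col6a3, Col27a1 and Col8a2 were not tested. Mutant medial library 1 was the highest in Col28a1 (1.38 TPM). Control medial library 6 was the highest in Col3a1 (9.03 TPM), Col1a2 (2.88) and Col1a1 (2.69). Control medial library 4 was the highest in Col8a2 (3.44 TPM) and Col8a1 (1.00), and control medial library 3 in Col5a1 (12.8 TPM).

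In mutant dorsal cortex library 2 was the lowest in Lamc1 (14.3 TPM), and library 1 the highest in Lama4 (6.19 TPM) and Col26a1 (1.03 TPM). In control dorsal cortex library 4 was the highest in Lamc3 (2.55 TPM) and Col1a2 (2.33 TPM), and library 3 in Col5a2 (11.4 TPM).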

How the results depend on the processing

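No called member changed direction under any alternative run. The count of members called between mutant and control stayed within 7 to 11 medially and 7 to 10 dorsally, the count for the difference between regions at 0, and the regional count in the control within 10 to 16. The regional count in the mutant (10) was 0 when only the 2 mutant groups were fitted, 5 to 11 without each library in turn, and 9 to 12 under the other settings. Calls that held under every alternative in which the member was tested were 6 of 9 medially, 7 of 9 dorsally, 10 of 14 for the region in the control and 0 of 10 in the mutant. Among the calls counted as held, Col9a1, Col9a2, Col22a1 and Col23a1 were not tested under the filter at 5 TPM. With replicates paired by embryo as a random block, counts were 9 medially, 9 dorsally, 0 for the difference, 12 for the region in the mutant and 16 in the control; with the number in the title as a fixed term they were 9, 9, 0, 11 and 14, with Col22a1 (adjusted p = 0.055) lost and Col9a1 (0.026) gained in the control. Quantile normalization moved the median log2 change of all genes medially from -0.11 to -0.01; there Lama5 (adjusted p = 0.115) and Col5a2 (0.086) lost and Col12a1 (0.028) and Col22a1 (0.042) gained a medial call, and Lama4 (0.238) lost its dorsal one. The dorsal call of Lama4 was also lost without control dorsal 1, 3, 4 or 6, mutant dorsal 2, 3 or 4, control medial 4 or mutant medial 1 or 2 (adjusted p 0.052 to 0.110). Col23a1 did not pass between mutant and control medially (log2 change -0.33, adjusted p = 0.14). It passed as lower without mutant medial library 3 (-0.50, adjusted p = 0.030) or control medial library 5 (-0.45, adjusted p = 0.037). Differences at low TPM cannot be weighed against counting error, since depth is unknown.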
